A study of Mus musculus with 6 samples.

Results

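Ifng, Tbx21 and Eomes were followed across the 6 RNA-seq libraries of CD8+ T cells, as 3 of the 18122 genes in the table. They were chosen by symbol: Ifng encodes the cytokine interferon gamma, and Tbx21 (T-bet) and Eomes encode the T-box transcription factors best known for acting on it in CD8+ T cells. All 3 passed the filter that left 9691 genes for testing.

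The cells came from lymph nodes of wild-type (WT) and Dusp2-/- mice and were cultured for 18 h before they were sorted by the surface glycoprotein CD44. The culture held plate-bound anti-CD3 at 1 µg/mL, anti-CD28 at 1 µg/mL, interferon alpha at 50 ng/mL and interleukin 4 at 20 ng/mL, and every group received it. The groups were WT cells with very high CD44 (CD44hi, 2 libraries), Dusp2-/- cells with very high CD44 (2 libraries), WT cells with low CD44 (CD44lo, 1 library) and Dusp2-/- cells with low CD44 (1 library). The treatment text of the labels names Rpa1fl/fl mice with Cd4-Cre in place of Dusp2-/- mice. Age, sex and strain are not given, nor whether the deletion covers T cells only or whether the libraries of a group came from separate animals, so p-values measure the spread between these libraries only.

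Interferon gamma is secreted by activated CD8+ T cells and acts on many cell types through the receptor chains IFNGR1 and IFNGR2. Its gene is switched on by T cell receptor signals through NFAT and AP-1, by interleukin 12 through STAT4, and by T-bet and Eomesodermin, which share a DNA-binding domain and part of their targets. Dusp2 encodes a phosphatase that acts on MAP kinases, which the T cell receptor activates. T-bet is linked to effector cells and Eomesodermin to memory cells, among them the virtual memory cells that interferon alpha and interleukin 4 favour.

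The sequence before the start of Ifng is shown because the signals above meet there. It covers 250 bases up to the annotated start at chr10:118440796-118441045 on the plus strand, from RefSeq on GRCm38.p6, and is written 5′ to 3′. All 3 members had an entry in that set. Capitals mark, in order, GGAAA (the core letters read by NFAT), TACGTAA (in the proximal element, where ATF and AP-1 proteins are known to bind) and TATAAA (the TATA box).
Ifng: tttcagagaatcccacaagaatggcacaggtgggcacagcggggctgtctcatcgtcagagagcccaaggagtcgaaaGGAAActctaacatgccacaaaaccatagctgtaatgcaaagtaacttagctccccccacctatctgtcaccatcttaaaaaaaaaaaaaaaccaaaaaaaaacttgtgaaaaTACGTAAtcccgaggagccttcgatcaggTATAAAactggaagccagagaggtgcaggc
GGAAA lies 172 to 168 bases before the start, TACGTAA 59 to 53 and TATAAA 30 to 25. Of 32851 promoter windows of the same length, searched on both strands, 55.6% hold GGAAA, 12.4% TATAAA and 0.432% TACGTAA, whose letters were chosen with this sequence in view. The T-box letters GGTGTGA, present in 3.33% of the windows, and the AP-1 letters TGANTCA, present in 6.75%, are in none of the windows of Ifng, Tbx21 and Eomes. In the Tbx21 window (chr11:97115332-97115581, minus strand) GGAAA lies on the opposite strand 178 to 174 bases before the start, and the Eomes window (chr9:118477939-118478188, plus strand) has none. These matches are letters only, and binding was not measured.

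Sequencing depth, taken from reads recovered from the FPKM values, was 23490008 reads in the Dusp2-/- CD44lo library and 42816073 to 55830235 in the other 5. FPKM counts fragments relative to gene length and to sequencing depth, so levels of different genes can be set side by side. Dusp2 was 82.6 to 116 FPKM in the 3 WT libraries and 0 to 0.0283 in the 3 Dusp2-/- libraries, while Rpa1 was 27.4 to 41.4 FPKM in all 6, so Dusp2 and not Rpa1 was the transcript missing from the libraries titled Dusp2-/-. Cd44 was 65.3 to 79.9 FPKM in the CD44hi libraries and 1.33 and 1.43 in the CD44lo libraries. The CD8 marker Cd8a was 246 to 358 FPKM and Cd4 at most 0.0228. The Dusp2-/- CD44hi libraries stood apart in Xist, at 15.1 and 15.5 FPKM against at most 0.00641 elsewhere, while Y-linked genes were present in every library. Of these, Ddx3y was 10.3 to 13.6 FPKM, Kdm5d 1.45 to 2.06 and Uty 1.32 to 1.61, and Eif2s3y was 18.4 to 20.3 FPKM in the other 4 libraries and 13.4 and 13.8 in Dusp2-/- CD44hi (-0.46 against WT CD44hi, adjusted p = 0.0060). These 5 genes were chosen after their values were seen. The Xist difference follows the Dusp2-/- CD44hi libraries, so in CD44hi it cannot be told apart from genotype. Its part in the results was not tested. The genotype comparison in CD44hi rests on those libraries, and the fraction comparison in Dusp2-/- and the interaction use them too.

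Within each fraction Ifng was higher in Dusp2-/- than in WT libraries, and within each genotype it was higher in CD44hi than in CD44lo. It stood at 11.9 FPKM (788 reads) in the WT CD44lo library and at 77.7 FPKM (2401 reads) in the Dusp2-/- CD44lo library. In CD44hi it was 217 and 186 FPKM in WT and 571 and 601 FPKM in Dusp2-/-. The 4 groups did not overlap, and the gap between any neighbours in this order was larger than the SD of 22.1 or 21.4 within the CD44hi pairs. Among all genes of a library, Ifng ranked 3931 in WT CD44lo, 616 in Dusp2-/- CD44lo, 174 and 210 in WT CD44hi and 63 and 62 in Dusp2-/- CD44hi. Its share of the FPKM total went from 0.00386% in WT CD44lo to 0.190% and 0.198% in Dusp2-/- CD44hi. In these bulk libraries, fewer cells that express a gene and less RNA per cell cannot be told apart.

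**Figure D1:**
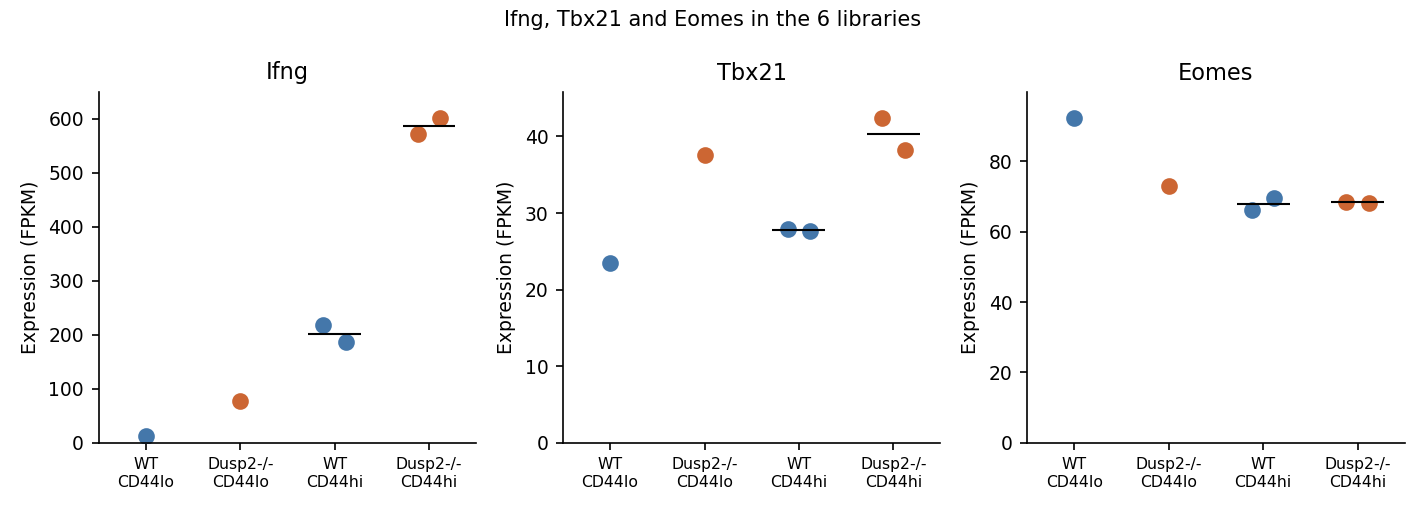
FPKM of Ifng, Tbx21 and Eomes (vertical axis, each panel from 0 with its own scale) in the 4 groups, with 1 point per library and a bar at the mean of each CD44hi pair. Ifng climbs from 11.9 to 601 FPKM over the groups, Tbx21 lies at 23.5 to 42.4 FPKM with the Dusp2-/- libraries above the WT libraries, and Eomes is at 92.3 FPKM in WT CD44lo and at 66.3 to 73.0 elsewhere.

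Tbx21 followed genotype more than CD44 fraction. It was 23.5 FPKM in WT CD44lo, 27.9 and 27.6 in WT CD44hi, 37.5 in Dusp2-/- CD44lo and 42.4 and 38.2 in Dusp2-/- CD44hi. All 3 Dusp2-/- libraries were above all 3 WT libraries. Within Dusp2-/-, the CD44lo library was within 1 SD (2.98, n = 2) of the CD44hi mean of 40.3 FPKM, so these neighbours in the order did not differ beyond their spread.

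Eomes was the more abundant of the T-box factors in every library and followed a different pattern. It was 92.3 FPKM in WT CD44lo, 73.0 in Dusp2-/- CD44lo, 66.3 and 69.7 in WT CD44hi, and 68.6 and 68.3 in Dusp2-/- CD44hi. The CD44hi libraries of the genotypes overlapped, with means of 68.0 FPKM (SD 2.41, n = 2) in WT and 68.4 FPKM (SD 0.218, n = 2) in Dusp2-/-. The WT CD44lo library was above the other 5.

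Relative to each other, Eomes outweighed Tbx21 least in the Dusp2-/- CD44hi libraries. The ratio of Eomes to Tbx21 FPKM was 3.93 in WT CD44lo, 1.95 in Dusp2-/- CD44lo, 2.37 and 2.52 in WT CD44hi, and 1.62 and 1.79 in Dusp2-/- CD44hi. In each fraction it was lower without Dusp2. The summed FPKM of the pair was 94.2 to 116 over the 6 libraries, a far narrower range than that of Ifng. Ifng relative to Tbx21 was 0.509 in WT CD44lo, 2.07 in Dusp2-/- CD44lo, 7.77 and 6.73 in WT CD44hi, and 13.5 and 15.7 in Dusp2-/- CD44hi. Ifng was therefore below Tbx21 in WT CD44lo and above it in the other 5 libraries. Relative to Eomes it was 0.129 in WT CD44lo, 1.06 in Dusp2-/- CD44lo, 3.28 and 2.67 in WT CD44hi, and 8.33 and 8.81 in Dusp2-/- CD44hi.

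The question of the series title is how Dusp2 loss changes the CD44hi cells. There, Ifng and Tbx21 rose in Dusp2-/- libraries and Eomes did not pass the test. The mean of Ifng was 2.91-fold that of WT, a log2 difference of 1.54 on the log2(FPKM + 1) scale (SE 0.091, 95% interval 1.32 to 1.76, adjusted p = 0.00064 by limma). Only 12 of the 9691 tested genes had a larger rise. Tbx21 was 1.45-fold higher, a log2 difference of 0.52 (SE 0.071, interval 0.35 to 0.69, adjusted p = 0.0052), and ranked 383 from the top. For Eomes the log2 difference was 0.01, with an interval from -0.14 to 0.16 (adjusted p = 0.928). Of all genes tested, 26.7% were called in this comparison, 12.9% as higher and 13.8% as lower. That split was 1248 higher and 1338 lower, and 1258 and 868 after the FPKM of every library were rescaled to sum to 1000000. With no filter on low values 2 genes were called (4678 at an unadjusted p under 0.05), and the adjusted p was 0.0622 for Ifng and 0.0731 for Tbx21. The number called was 1196 and 1077 without Dusp2-/- CD44hi replicate 1 or 2, and 4105 without WT CD44hi replicate 1. The mitochondrial share of recovered reads was 2.73% and 2.94% in the Dusp2-/- and 2.15% and 2.03% in the WT CD44hi libraries, and its part in these differences was not tested.

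In CD44lo, where the 1 library per genotype was described without a test, the log2 difference of Ifng was larger than in CD44hi. The Dusp2-/- library had 6.50 times the Ifng FPKM of the WT library, a log2 difference of 2.60, and 1 of the 9691 genes lay above it. Tbx21 was 1.60 times as high (0.65) and Eomes 0.791 times as high (-0.33). Of all genes tested, 1.68% differed by at least 2-fold on this scale, 0.795% higher and 0.887% lower. The mitochondrial share of recovered reads was 3.79% in the Dusp2-/- and 2.56% in the WT library.

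High CD44 went with more Ifng in both genotypes, with little change in Tbx21. In WT the CD44hi mean was 16.9-fold the CD44lo level, a log2 difference of 3.96 (SE 0.11, adjusted p = 3.0e-05 by limma), and 1 gene had a larger rise. In Dusp2-/- it was 7.55-fold (2.90, SE 0.11, adjusted p = 6.1e-05). Tbx21 differed by 0.23 in WT (interval 0.03 to 0.44, adjusted p = 0.0914) and by 0.10 in Dusp2-/- (interval -0.11 to 0.31, adjusted p = 0.398). Eomes fell by 0.44 in WT (interval -0.62 to -0.25, adjusted p = 0.0086). In Dusp2-/- its difference was -0.09 (interval -0.28 to 0.09, adjusted p = 0.369), and whether this differed from WT did not pass the test given next. These fits called 26.1% of genes in WT (15.4% higher, 10.7% lower) and 40.1% in Dusp2-/- (23.6% higher, 16.5% lower). The WT split was 1490 higher and 1037 lower but 1254 and 1319 with median-ratio scaling. The Dusp2-/- split was 2285 and 1603 but 3302 and 986 after rescaling to 1000000, which moved the median of all genes from 0.05 to 0.19. Both comparisons rest on a single CD44lo library, assumed to vary like the CD44hi pairs.

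On the log2(FPKM + 1) scale, the genotype difference of Ifng was smaller in CD44hi than in CD44lo. In FPKM it was larger in CD44hi, with means of 202 in WT and 586 in Dusp2-/-, against 11.9 and 77.7 in CD44lo. The test of the log2 difference rests on 1 CD44lo library per genotype and missed the threshold with no filter on low values. The interaction, CD44hi minus CD44lo, was -1.06 (SE 0.158, interval -1.44 to -0.69, adjusted p = 0.0331), where 4.22% of all genes were called, 2.73% as higher and 1.49% as lower. After rescaling to 1000000 that split went from 265 higher and 144 lower to 209 and 29, with the median of all genes at 0.13 in place of -0.01. With a trend on gene length removed from each library, the Ifng interaction was -0.80 and missed the threshold (adjusted p = 0.094). For Tbx21 it was -0.14 (adjusted p = 0.503) and for Eomes 0.34 (adjusted p = 0.105). Eomes passed when WT CD44hi replicate 1 or 2 was left out (adjusted p = 0.0322 and 0.0300).

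**Figure D2:**
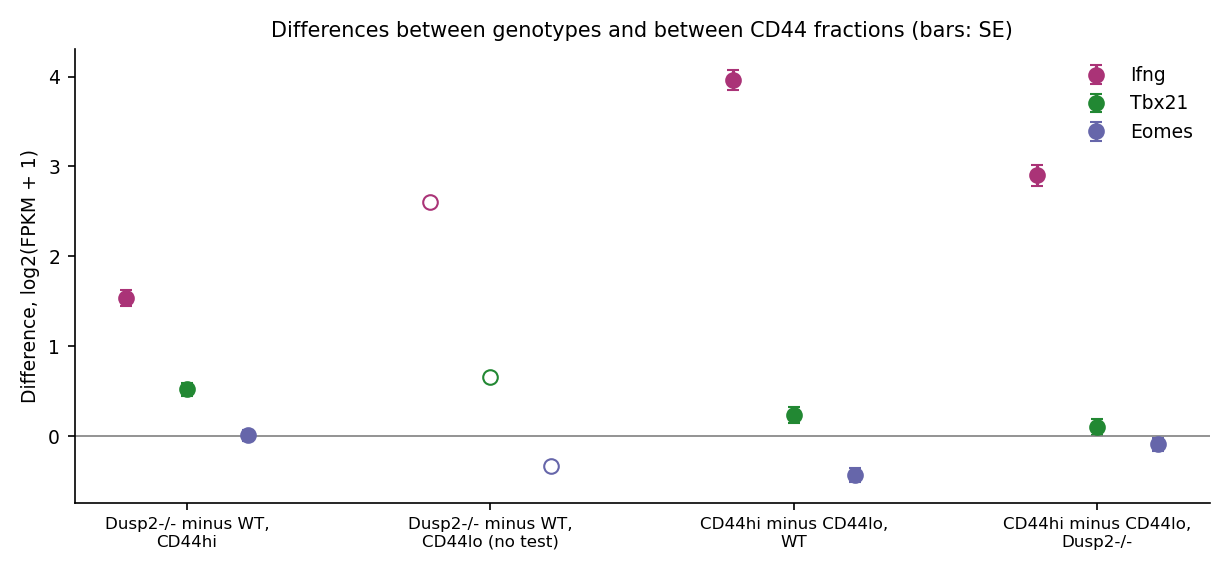
Differences of Ifng, Tbx21 and Eomes on the log2(FPKM + 1) scale (vertical axis) between genotypes in each CD44 fraction and between fractions in each genotype. Filled points carry the SE from limma and open points are the CD44lo genotype comparison, which has 1 library a side and no test. Ifng lies between 1.54 and 3.96, while Tbx21 and Eomes lie between -0.44 and 0.65.

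Across its family, Tbx21 and Eomes were the T-box genes with substantial levels. Of 11 family members in the table, 3 were tested, and the third was Mga, a large protein with a T-box that represses transcription as a partner of Max. Mga was 5.05 FPKM in WT CD44lo, 3.81 in Dusp2-/- CD44lo, 4.64 and 3.91 in WT CD44hi, and 7.78 and 8.19 in Dusp2-/- CD44hi. It rose by 0.77 with Dusp2 loss in CD44hi (SE 0.094, adjusted p = 0.0038), and its interaction was 1.10 (adjusted p = 0.0331), of opposite sign to that of Ifng, and was lost like it with the length trend removed (adjusted p = 0.0687). The other 8 family members did not exceed 0.464 FPKM in any library.

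Ifng was 1 of 10 cytokine genes that rose with Dusp2 loss in CD44hi, out of 18 tested from a list of 31, and 0 fell by limma, also at an unadjusted p under 0.05 and by limma voom on recovered reads. These are 55.6% of the list as higher and 0% as lower, against 12.9% and 13.8% of all genes tested. The median log2 difference of the 18 was 0.40, against -0.02 over all genes tested. The filter on the mean kept some of them for their level in CD44hi alone, so the count describes the list. Lta (lymphotoxin alpha) was 14.8 and 12.6 FPKM in WT and 33.4 and 37.2 in Dusp2-/- CD44hi (1.30, SE 0.093, adjusted p = 0.0009). Il2, the T cell growth factor, was 1.51 and 1.77 FPKM in WT and 6.23 and 8.15 in Dusp2-/- (1.62, SE 0.133, adjusted p = 0.0012). Il3, a growth factor of blood progenitors, was 3.36 and 2.72 FPKM in WT and 9.43 and 9.56 in Dusp2-/- (1.38, SE 0.105, adjusted p = 0.0009). Each was among the genes named for a small p in this comparison, so its higher level in both Dusp2-/- CD44hi libraries follows from that choice. Lif rose by 0.93 and the chemokine gene Ccl1 by 0.63. Tnf rose by 0.47 (adjusted p = 0.0221), a call that was lost without Dusp2-/- CD44hi replicate 2 (adjusted p = 0.065). Leaving out either Dusp2-/- CD44hi library left 8 or 9 rises and 0 falls, and leaving out a WT CD44hi library gave 12 or 10 rises with 1 or 3 falls.

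In CD44lo, 5 of these 18 genes were at least 2-fold higher in the Dusp2-/- library and 0 at least 2-fold lower, with no test. Of all genes tested, 0.795% were that much higher and 0.887% that much lower. The 5 cytokine genes were Ifng, Lta (14.1 FPKM in WT, 39.9 in Dusp2-/-), Tnf (10.6 and 24.6), Il2 (0.206 and 1.94) and Ccl1 (0.539 and 2.42), judged on log2(FPKM + 1). Across fractions the cytokines parted: 10 rose and 3 fell with high CD44 in WT, and 9 rose and 2 fell in Dusp2-/-. In WT these are 55.6% and 16.7%, against 15.4% and 10.7% of all genes tested. In Dusp2-/- they are 50% and 11.1%, against 23.6% and 16.5%. The limit from the filter on the mean holds for these counts too, so they describe the list. Ccl1 rose by 3.68 in WT, near the 3.96 of Ifng, and Tnfsf11 (RANK ligand) by 2.20. Lta changed by -0.04 in WT (adjusted p = 0.826) and Tnf fell by 0.77 in Dusp2-/-.

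**Figure D3:**
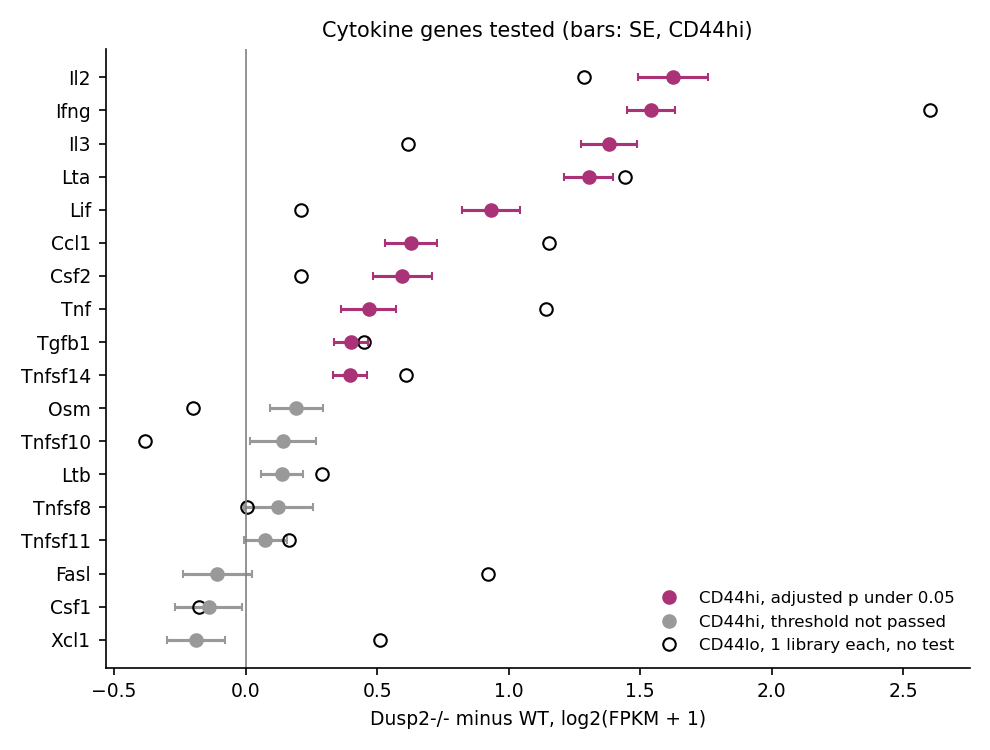
Dusp2-/- minus WT differences on the log2(FPKM + 1) scale (horizontal axis) for the 18 cytokine genes tested, with filled points and SE bars for CD44hi and open points for CD44lo, where the difference was not tested. Ifng is second to Il2 in CD44hi at 1.54 and has the largest CD44lo difference of the 18 at 2.60.

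Among 26 receptors and transducers upstream of Ifng, 4 rose and 4 fell with Dusp2 loss in CD44hi (median 0.01), and 18 did not pass. That is 15.4% in each direction, near the 12.9% higher and 13.8% lower of all genes tested, so the count is no result about this list. Il12rb1, the shared chain of the interleukin 12 receptor, was 19.4 and 14.3 FPKM in WT and 38.8 and 35.6 in Dusp2-/- CD44hi (1.11, SE 0.133, adjusted p = 0.0037). Il12rb2, its signalling chain and also a T-bet target, rose by 0.53 in CD44hi but was 11.7 FPKM in WT CD44lo and 6.05 in Dusp2-/- CD44lo. Its interaction was 1.37 (adjusted p = 0.0297). Il2ra, the high-affinity chain of the interleukin 2 receptor, rose by 1.03, from 48.9 and 41.0 FPKM to 90.0 and 95.1. Stat4 differed by 0.12 (adjusted p = 0.232) and the interleukin 18 receptor genes Il18r1 and Il18rap by 0.07 and -0.08 (adjusted p = 0.634 and 0.629). Stat2 fell by 0.52 and Ifnar1, a chain of the type I interferon receptor, by 0.40. With high CD44, 5 of the 26 rose and 7 fell in WT (median -0.11) and 8 rose and 4 fell in Dusp2-/- (median 0.17). In WT these are 19.2% and 26.9%, against 15.4% and 10.7% of all genes tested. In Dusp2-/- they are 30.8% and 15.4%, against 23.6% and 16.5%. Without WT CD44hi replicate 1 the genotype counts were 7 and 4, and without replicate 2 they were 4 and 8.

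The other transcription factors that act on Ifng moved in both directions: 8 of 30 tested rose (26.7%), 10 fell (33.3%), and the median was 0.04. Of all genes tested, 12.9% rose and 13.8% fell with Dusp2 loss in CD44hi. Batf3, an AP-1 family member, was 0.878 and 0.895 FPKM in WT and 3.97 and 4.37 in Dusp2-/- CD44hi (1.45, SE 0.099, adjusted p = 0.0008), and Irf8 rose by 0.47. Irf1, an interferon-induced factor, fell by 0.84, from 73.7 and 68.9 FPKM to 40.1 and 38.8. Id3 fell by 0.70, Jun by 0.57, Bhlhe40 by 0.55 and Ets1 by 0.47. Runx3, which acts with T-bet on Ifng, was 14.8 and 13.7 FPKM in WT and 14.9 and 13.5 in Dusp2-/-, with overlapping groups (adjusted p = 0.976). Gata3 (-0.37) and Tcf7 (-0.29) passed, and both calls were lost without either Dusp2-/- CD44hi library. Without replicate 1 of that group 3 factors rose and 5 fell, and without replicate 2 the counts were 4 and 6. With high CD44, 9 rose and 11 fell in WT (30% and 36.7%, against 15.4% and 10.7% of all genes tested). In Dusp2-/- 8 rose and 8 fell (26.7% each, against 23.6% and 16.5%). The filter on the mean can keep a gene for its level in CD44hi alone, so these counts describe the list.

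Of 13 genes for RNA-binding proteins that act on cytokine transcripts, 0 rose and 5 fell (38.5%) with Dusp2 loss in CD44hi (median -0.13). The shares over all genes tested were 12.9% higher and 13.8% lower. The count of rises by limma was also 0 at an unadjusted p under 0.05, and limma voom on recovered reads called 0 rises and 5 falls. Zfp36, which encodes tristetraprolin, a protein that speeds the decay of AU-rich cytokine transcripts, was 31.9 and 32.7 FPKM in WT and 16.2 and 16.3 in Dusp2-/- (-0.95, SE 0.060, adjusted p = 0.0007). Zfp36l1, a relative, fell by 0.58 and Zc3h12a, an RNA-cleaving enzyme, by 0.51. Zfp36l2 differed by -0.03. Zfp36 was also lower in the Dusp2-/- CD44lo library, at 34.4 FPKM against 55.7. The falls of Zc3h12d and N4bp1 were lost without either Dusp2-/- CD44hi library, which left 3. With high CD44, 2 of the 13 rose and 4 fell in WT (15.4% and 30.8%, against 15.4% and 10.7% of all genes tested). In Dusp2-/- 1 rose and 4 fell (7.69% and 30.8%, against 23.6% and 16.5%).

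Genes that T-bet and Eomesodermin are known to act on moved in both directions with Dusp2 loss in CD44hi: 7 of 20 tested rose (35%), 5 fell (25%), and the median was -0.03. Among all genes tested the shares were 12.9% and 13.8%. The chemokine genes Ccl3 and Ccl4 rose by 1.56 and 1.25, with Ccl3 at 98.5 and 92.2 FPKM in WT and 279 and 289 in Dusp2-/-. Slamf7, a surface receptor of cytotoxic cells, rose by 0.81. Gzma (granzyme A) fell by 1.03, from 36.0 and 30.1 FPKM to 15.4 and 15.8. Klrd1 and Klrc1, which encode CD94 and NKG2A, fell by 0.98 and 0.45. Cxcr3, a chemokine receptor under T-bet, fell by 0.41 (adjusted p = 0.0254), and the call was lost after rescaling to 1000000 (0.068), with the length trend removed (0.092) and without Dusp2-/- CD44hi replicate 2 (0.084). With high CD44, 13 of the 20 rose and 2 fell in WT (median 0.86, against 0.05 for all genes) and 9 rose and 1 fell in Dusp2-/- (median 0.29). In WT these are 65% and 10%, against 15.4% and 10.7% of all genes tested. In Dusp2-/- they are 45% and 5%, against 23.6% and 16.5%. The filter on the mean can keep a gene for its level in CD44hi alone, so these counts describe the list. With no filter on low values, 8 of 27 rose and 0 fell in WT (median 0.54), where 529 and 641 of 18122 genes did. In Dusp2-/- 8 rose and 0 fell (median 0.17), where 1154 and 931 genes did. Without WT CD44hi replicate 2 the genotype counts were 7 rises and 8 falls, and without Dusp2-/- CD44hi replicate 2 they were 5 and 3.

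**Figure D4:**
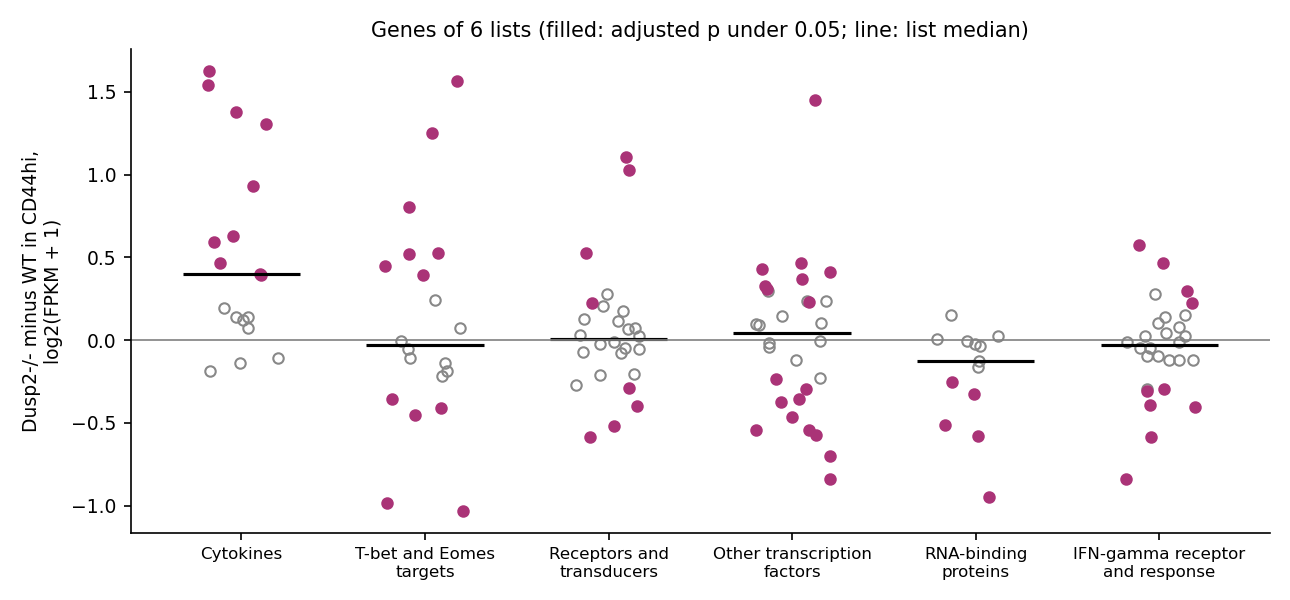
Dusp2-/- minus WT differences in CD44hi on the log2(FPKM + 1) scale (vertical axis) for the tested genes of 6 lists, with 1 point per gene, filled where the adjusted p was under 0.05, and a line at the list median. The cytokine list has 10 filled points above 0 and 0 below, with its median at 0.40, and the RNA-binding list has 0 above and 5 below.

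Genes for the receptor of interferon gamma and for the response to it were mostly lower in CD44hi, where Ifng was higher. Of 28 tested, 4 rose (14.3%) and 6 fell (21.4%) with Dusp2 loss in CD44hi (median -0.03), where 12.9% and 13.8% of all genes did. With high CD44, 1 rose and 20 fell in WT (median -0.68), and 1 rose and 19 fell in Dusp2-/- (median -0.72). In WT these are 3.57% and 71.4%, against 15.4% and 10.7% of all genes tested. In Dusp2-/- they are 3.57% and 67.9%, against 23.6% and 16.5%. Ifngr1, the ligand-binding chain, was 52.3 FPKM in WT CD44lo and 27.0 and 22.9 in WT CD44hi, a fall by 1.04, and it fell by 1.44 in Dusp2-/-. With Dusp2 loss in CD44hi it differed by -0.12 (adjusted p = 0.326). Gbp2, a guanylate-binding protein gene, was 510 FPKM in WT CD44lo and 153 and 162 in WT CD44hi, a fall by 1.69, and Cxcl10 fell by 1.36. Iigp1, an immunity-related GTPase gene, rose with Dusp2 loss by 0.58, while Ifngr2 fell by 0.39, a call lost without either Dusp2-/- CD44hi library. All cells had received interferon alpha, which induces many of these genes too. Without Dusp2-/- CD44hi replicate 2 the genotype counts were 2 and 2, and without replicate 1 they were 2 and 5.

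Of the genes next to Ifng, the antisense RNA Ifngas1 was 1.04 FPKM in WT CD44lo, 1.81 in Dusp2-/- CD44lo, 1.98 and 2.92 in WT CD44hi, and 2.03 and 1.73 in Dusp2-/- CD44hi. It differed by -0.25 with genotype in CD44hi (adjusted p = 0.249), with overlapping groups, and rose by 0.74 with high CD44 in WT (adjusted p = 0.0262). Whether the counting used strand is not given in the sources used here, so reads from such a gene and an overlapping partner cannot be told apart. Il22 was at most 0.0414 FPKM. Mdm1 rose by 0.62 with Dusp2 loss in CD44hi and Dyrk2 differed by -0.23 (adjusted p = 0.0606).

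The genes most like Ifng in pattern differed from it more than those most like Tbx21 or Eomes did from theirs. The likeness used was the root mean square difference between centred log2(FPKM + 1) values over the 6 libraries, among 6253 genes whose mean reached 5 FPKM. The nearest to Ifng were the chemokine gene Ccl9 at 0.487 and Rrm2, a ribonucleotide reductase subunit, at 0.50, then Ccl1, Pclaf and Ccna2. For Tbx21 they were Tnfsf14 (LIGHT, a T cell costimulator) at 0.0609, Chchd4, Tnfrsf18, Tagln2 and Cbwd1. For Eomes they were Pdk1 at 0.0314, Ilrun, Fkbp15, Rexo4 and Ik. A gene with a small range has near neighbours more easily, and genes of a library share its depth.

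Markers of other cell types were low, with exceptions. Summed over the 10 NK cell markers in the table, FPKM was 0.276 and 0.431 in the CD44lo libraries, 4.41 and 3.02 in WT CD44hi, and 2.51 and 4.27 in Dusp2-/- CD44hi. The 1 NK marker that passed the filter rose with high CD44 by 1.46 in WT and 1.54 in Dusp2-/-. Both calls passed by limma, where 15.4% and 23.6% of all genes tested rose. Klrb1c, not tested, was 0 in both CD44lo libraries and at most 0.0466 in CD44hi. The gamma delta T cell sum was 1.41 in WT CD44lo and 3.45 in Dusp2-/- CD44lo, and 3.67 to 4.45 in CD44hi. The NK sum moves with the fraction comparison of Ifng in both genotypes. The gamma delta sum moves with it in WT, and with the CD44lo genotype comparison. Its tested marker, Trgc2, was 1.14 FPKM in WT CD44lo and 3.25 in Dusp2-/- CD44lo, and 2.24 to 2.93 in CD44hi, with an interaction of -0.80 (adjusted p = 0.0495), of the same sign as that of Ifng. The part of these markers in the Ifng results was not tested. Between genotypes in CD44hi the NK and gamma delta sums overlapped. The CD4 and NKT sum was 0.265 to 0.828 and the myeloid sum 3.0 to 5.62 FPKM. Among B cell markers Ighm was 110 to 140 FPKM with Cd79a at most 0.379, and Cd79b was 12.2 and 9.88 in WT and 22.4 and 24.5 in Dusp2-/- CD44hi. Of the 10 CD8 T cell markers tested, 6 fell with Dusp2 loss in CD44hi (3 without either Dusp2-/- library), and their sum was 2254 and 2145 FPKM in WT and 1788 and 1854 in Dusp2-/-. With high CD44, 3 of the 10 fell and 1 rose in WT (median -0.12, 1 fall without either Dusp2-/- CD44hi library). In Dusp2-/- 8 fell and 1 rose (median -0.52), with 3 and 5 falls without Dusp2-/- CD44hi replicate 1 and 2. Of all genes tested, 13.8% fell with Dusp2 loss in CD44hi, and 10.7% in WT and 16.5% in Dusp2-/- fell with high CD44. The falls of the CD8 markers go along with the genotype and fraction comparisons of Ifng, and their part in them was not tested.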

How the data were processed

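Per the labels' protocols, RNA was extracted with Trizol and sequenced on Illumina libraries. The description field also names 10X Genomics. HISAT2 2.0.5 is named in the submitters' processing notes with the builds mm39 and hg38 and no role for either, and the counter and annotation are not stated there. The authors deposited 1 table of FPKM values, in which 0 columns were left unused and 17 symbols had more than 1 row. Whole reads were recovered from the steps of the FPKM values: the 16220 rows with values in at least 2 libraries all gave whole numbers (100%, tolerance 1e-06 reads). They gave depths and 1 alternative.

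Differences were tested on log2 of the deposited FPKM plus a pseudocount of 1 with limma 3.58.1 (R 4.3.3), for the 9691 genes whose mean reached 1 FPKM, with a variance trend, a mean per group (2 residual degrees of freedom), two-sided tests and Benjamini-Hochberg adjustment over all genes tested at 0.05. The CD44lo genotype comparison, 1 library each, was described without a test. The main fit of each tested comparison was run on simulated data, and the alternative fits were not.

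The members and lists were chosen with earlier results of these data known. Lists were the T-box family, cytokines, receptors and transducers, other transcription factors, RNA-binding proteins, T-bet and Eomes targets, the interferon gamma response, the neighbours of Ifng, and 6 sets of cell type markers. Named genes are the members, label checks, family and neighbours, up to 8 per list with the smallest p in the CD44hi genotype comparison and 3 in each other comparison, 15 fixed genes and the 5 nearest patterns per member. Alternatives were a pseudocount of 0.1, no filter, 2 scalings, a replicate block, limma voom, a correction for gene length (loess, span 0.5), CD44hi libraries alone and each library left out. For single list genes these were chosen after seeing the data. Promoter sequences are from RefSeq, assembly GRCm38.p6. Results for 1 gene of the lists are not reported here.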

Additional observations from a re-analysis of the deposited data

Results flagged for a closer look

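The limma interaction test (CD44hi minus CD44lo, on log2(FPKM + 1)) called 4.22% of all genes tested, 2.73% as higher and 1.49% as lower. Among the lists and marker sets it called 11 genes, with 1 CD44lo library per genotype. That count by itself is no result about the lists. The genotype difference was smaller or lower in CD44hi for Ifng (-1.06), Cxcr3 (-1.19), the chemokine genes Ccl4 (-1.12) and Ccl3 (-0.84), Hopx (-0.83), a cofactor of effector T cells, and the gamma delta T cell marker Trgc2 (-0.80). It was higher in CD44hi for Il12rb2 (1.37), Mga (1.10), Ikzf3 (0.70), which encodes the lymphocyte factor Aiolos, and the interferon-induced genes Gbp5 (0.66) and Iigp1 (0.58). Like Ifng, both chemokine genes were far higher in the Dusp2-/- than in the WT CD44lo library: Ccl3 was 25.5 FPKM in WT and 139 in Dusp2-/-, and Ccl4 was 120 and 628. Il12rb2 went the other way there, at 11.7 FPKM in WT and 6.05 in Dusp2-/-. With a trend on gene length removed, Il12rb2 passed the threshold (adjusted p = 0.0385) and the other 10 did not, Ifng at 0.094. With limma voom on recovered reads Hopx (adjusted p = 0.063) and Trgc2 (0.106) missed it and the other 9 passed. Rescaling to 1000000 ended the calls of Hopx (0.0618) and Cxcr3 (0.0506), and Trgc2 was not called there either. Without Dusp2-/- CD44hi replicate 1 the calls of Iigp1 and Trgc2 were lost, and without replicate 2 those of Iigp1, Trgc2 and Hopx (0.0529). With no filter on low values all 11 were lost. The Dusp2-/- CD44lo library was the shallowest, at 23490008 reads, and its part in these values was not tested.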

How the results depend on the processing

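With no filter on low values, 2 genes were called between genotypes in CD44hi, 1170 between fractions in WT, 2085 in Dusp2-/- and 39 for the interaction, and the genotype differences of Ifng (1.54) and Tbx21 (0.52) in CD44hi and the Ifng interaction (-1.06) kept their size but missed the threshold. Rescaling to 1000000 gave an Eomes fraction difference of 0.045 in Dusp2-/-, a Tbx21 interaction of 0.012, 238 interaction calls, and CD44lo genotype differences of 0.56 for Tbx21 and -0.44 for Eomes. Removing the length trend gave an Ifng interaction of -0.80, a Tbx21 interaction of 0.020, 121 interaction calls, and CD44lo genotype differences of 2.45 for Ifng and 0.56 for Tbx21. With the replicate number as a block, Tbx21 passed between fractions in WT (0.28, adjusted p = 0.0426) and 1565 genes were called for the interaction. Whether the numbers pair the CD44hi libraries cannot be told from the values alone. The correlation of same-numbered deviations was 0.02 across 9691 genes, and the block changed no other call of the 3 members.

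Leaving out 1 library gave 1077 to 4105 genes called between genotypes in CD44hi, 2158 to 3815 between fractions in WT, 2505 to 5505 in Dusp2-/- and 348 to 3067 for the interaction. The low ends came without a Dusp2-/- CD44hi library and the high ends without a WT CD44hi library. Eomes ran from -0.027 to 0.045 between genotypes in CD44hi and from 0.31 to 0.38 in the interaction. The Ifng differences between genotypes in CD44hi and between fractions kept their direction under all alternatives, and their calls under all but the missing filter, which ended the genotype call. Causes of these shifts were not tested. Precision is limited by 2 residual degrees of freedom and 1 CD44lo library per genotype. The lowest read count of Ifng was 788, a counting error of 3.56%.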

Other observations

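Rrm2, the gene second nearest to Ifng in its pattern over the 6 libraries, was 2.44 FPKM in WT CD44lo, 9.25 in Dusp2-/- CD44lo, 20.5 and 19.9 in WT CD44hi, and 59.9 and 58.9 in Dusp2-/- CD44hi. Ccl9, the nearest, was 1.51, 5.75, 24.2 and 20.7, and 40.9 and 43.7 FPKM in the same order. Both were picked for their likeness to Ifng over these libraries, so the shared order of groups follows from that choice.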
